A study of Mus musculus with 2 samples.

Results

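Phosphofructokinase makes the committed step of glycolysis, and the PFKFB enzymes set the level of its strongest activator. The genes described here are the 3 subunit genes of phosphofructokinase (Pfkl, Pfkm and Pfkp) and the 4 genes of the bifunctional PFKFB enzymes (Pfkfb1, Pfkfb2, Pfkfb3 and Pfkfb4). They were chosen by family name, with earlier results of these data known, and all 7 had a row among the 44792 genes of the deposited count table. The libraries came from OCCM-30, immortalized mouse cells that resemble cementoblasts, the makers of the mineralized cementum on tooth roots. Both groups carry a wild type genotype in the labels and grew in the same serum-containing medium. Cells of 1 group were put under compressive force and the other group served as control, and the labels do not state how strong or how long the force was. Each group is 1 library, so no difference below has a replicate check, and each ratio compares these libraries and not the conditions.

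Phosphofructokinase is a tetramer that adds a second phosphate to fructose 6-phosphate, and its liver (Pfkl), muscle (Pfkm) and platelet (Pfkp) subunits can form mixed tetramers. The PFKFB enzymes hold a kinase and a phosphatase in the same protein chain, which make and remove the activator fructose 2,6-bisphosphate. Pfkfb3 and Pfkfb4 are known to be induced by hypoxia-inducible factors (HIF) in many cell types, and several glycolytic enzymes share that control.

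The promoter sequences of Pfkp and Pfkl, the members with the highest ratios, are shown first, with those of Pfkfb3 and Pfkfb4, the members best known as HIF targets. Each is the 250 bases before a transcription start annotated in RefSeq, on GRCm38.p6, written 5′ to 3′ on the strand of the gene. Capitals mark each ACGTG or GCGTG on either strand, the core of the HIF binding element. Bases farther upstream than these 250, and those after the start, were not searched. The RefSeq promoter table used here holds 2 starts for Pfkfb3, both shown, and 1 each for Pfkp, Pfkl and Pfkfb4. The gene spans given below begin upstream of every tabled start for Pfkp, Pfkfb2, Pfkfb3 and Pfkfb4, so these genes have further annotated starts that were not searched. The windows lie at chr13:6648772-6649021 for Pfkp, chr10:78009808-78010057 for Pfkl, chr2:11553930-11554179 and chr2:11502091-11502340 for Pfkfb3, and chr9:108991652-108991901 for Pfkfb4. The Pfkfb4 gene is on the plus strand and the others are on the minus strand.
Pfkp: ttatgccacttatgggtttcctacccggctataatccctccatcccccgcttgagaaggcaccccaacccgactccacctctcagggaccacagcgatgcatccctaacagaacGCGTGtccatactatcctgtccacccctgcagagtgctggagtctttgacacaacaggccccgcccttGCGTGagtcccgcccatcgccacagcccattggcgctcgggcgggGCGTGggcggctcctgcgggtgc
Pfkl: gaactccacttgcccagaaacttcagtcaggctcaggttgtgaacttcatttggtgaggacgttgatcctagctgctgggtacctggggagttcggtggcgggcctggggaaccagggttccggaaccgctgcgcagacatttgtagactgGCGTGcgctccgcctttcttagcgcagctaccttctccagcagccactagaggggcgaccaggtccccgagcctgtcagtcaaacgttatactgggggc
Pfkfb3, first start: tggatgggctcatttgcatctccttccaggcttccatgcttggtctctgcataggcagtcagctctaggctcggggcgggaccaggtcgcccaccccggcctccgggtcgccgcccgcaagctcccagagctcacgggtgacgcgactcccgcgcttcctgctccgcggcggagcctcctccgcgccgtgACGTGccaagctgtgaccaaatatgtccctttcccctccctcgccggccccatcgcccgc
Pfkfb3, second start: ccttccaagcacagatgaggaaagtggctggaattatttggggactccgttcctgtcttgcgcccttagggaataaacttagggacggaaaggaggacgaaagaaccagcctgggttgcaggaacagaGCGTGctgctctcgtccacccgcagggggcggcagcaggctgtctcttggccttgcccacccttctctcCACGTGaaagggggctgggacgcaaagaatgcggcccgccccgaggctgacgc
Pfkfb4: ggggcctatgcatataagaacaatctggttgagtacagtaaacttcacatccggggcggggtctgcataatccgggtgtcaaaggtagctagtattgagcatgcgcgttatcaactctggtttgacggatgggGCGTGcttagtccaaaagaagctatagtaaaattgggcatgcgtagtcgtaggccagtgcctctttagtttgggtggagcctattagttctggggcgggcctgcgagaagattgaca

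The Pfkp window held GCGTG at 3 places, beginning 136, 68 and 23 bases before the start. The Pfkl window held 1 GCGTG, 99 bases before the start, and the Pfkfb4 window also held 1, at 117 bases. At the first Pfkfb3 start there was 1 ACGTG at 60 bases. At the second there was GCGTG at 122 bases and a CACGTG palindrome, which reads as ACGTG on both strands and so counts as 2 matches. Of 32807 RefSeq promoter windows of the same length, 38.6% held ACGTG or GCGTG, and of the 11534 windows of genes above the expression minimum defined below 56% did. GCGTG alone was in 45% of the latter and ACGTG in 21.6%. A match is common among promoters, and every window shown held at least 1. Whether a match bears on the ratio of a member was not tested. Among the windows not shown, 3 of 4 for Pfkm, 1 of 4 for Pfkfb1 and 3 of 3 for Pfkfb2 held a match. The windows of Pfkm starts 2 and 3 overlap and hold the same GCGTG. These matches describe the letters of the windows and are not binding sites measured here.

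Counts were set on a common scale as CPM, counts per 1000000 of the effective library size, which is the total count adjusted by trimmed mean of M-values (TMM) factors. Library totals were 24296292 counts under force and 25049919 in the control. Ratios are of the compressed over the control library, each with an exact 95% interval that covers counting error only. The expression minimum was 1 CPM in the library with the larger value. A higher call needed a ratio of 2 or more with its interval above 1, and a lower call a ratio of 0.5 or less with its interval below 1. The minimum left 14001 genes, of which 436 (3.11%) met the rule for higher and 141 (1.01%) that for lower. All 7 members passed the minimum, 1 was called higher and 0 lower. The ratio was above 1 in all 7, a direction shared by 48.6% of the genes tested, and the interval lay above 1 in 3.

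Of the phosphofructokinase subunit genes, Pfkp was called higher in the compressed library, Pfkl had an interval above 1 without reaching 2-fold, and the interval of Pfkm included 1. The summed counts of the 3 genes were 10266 under force and 5832 in the control, a ratio of 1.82 (95% counting interval 1.76 to 1.88). The sum was 232.7 CPM in the control and 422.7 CPM under force. Of that gain, Pfkp held 66.6%, Pfkl 33.0% and Pfkm 0.361%.

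Pfkp encodes the platelet-type subunit, which is common in proliferating and cancer cells, and lies on chromosome 13 at 6579874 to 6649060. It had 5948 counts (244.9 CPM) under force and 2965 counts (118.3 CPM) in the control, a ratio of 2.07 (1.98 to 2.16). Pfkp was the member called higher, and its interval reached below the 2-fold limit. Of the 10085 mRNAs that averaged 5 CPM or more over both libraries, 0.962% had a higher log2 ratio, which placed Pfkp at rank 98. Calls were rarer among well expressed genes than among all genes: of 4858 mRNAs that averaged 50 CPM or more, a limit chosen after the values were seen, 39 (0.803%) were called higher and 1 (0.0206%) lower. The Pfkp span shares 285 bases with Pitrm1, a mitochondrial peptidase gene with a ratio of 0.946 (0.904 to 0.990), and it also overlaps the lncRNA gene Gm35730, which was not analysed here.

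Pfkl encodes the liver-type subunit and lies on chromosome 10 at 77986947 to 78009807. It had 4218 counts (173.7 CPM) under force and 2781 counts (110.97 CPM) in the control, a ratio of 1.57 (1.49 to 1.64). It stayed under the 2-fold limit and passed a limit of 1.5-fold, at which 1027 of 14001 genes (7.34%) were called higher and 3.74% lower. Among the mRNAs that averaged 50 CPM or more, these shares were 2.22% and 0.885%. Of the 10085 mRNAs, 3.64% had a higher log2 ratio than Pfkl.

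Pfkm encodes the muscle-type subunit and lies on chromosome 15 at 98092589 to 98132447. It had 100 counts (4.12 CPM) under force and 86 (3.43 CPM) in the control. The ratio of 1.20 had an interval of 0.890 to 1.62, so a difference was not detectable at this depth. Its gene span overlaps that of Senp1, a SUMO protease gene, by 981 bases, and Senp1 had 5375 counts against 6597. No source used here names the strand setting of the counting, so reads in the shared stretch could belong to either gene.

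**Figure D1:**
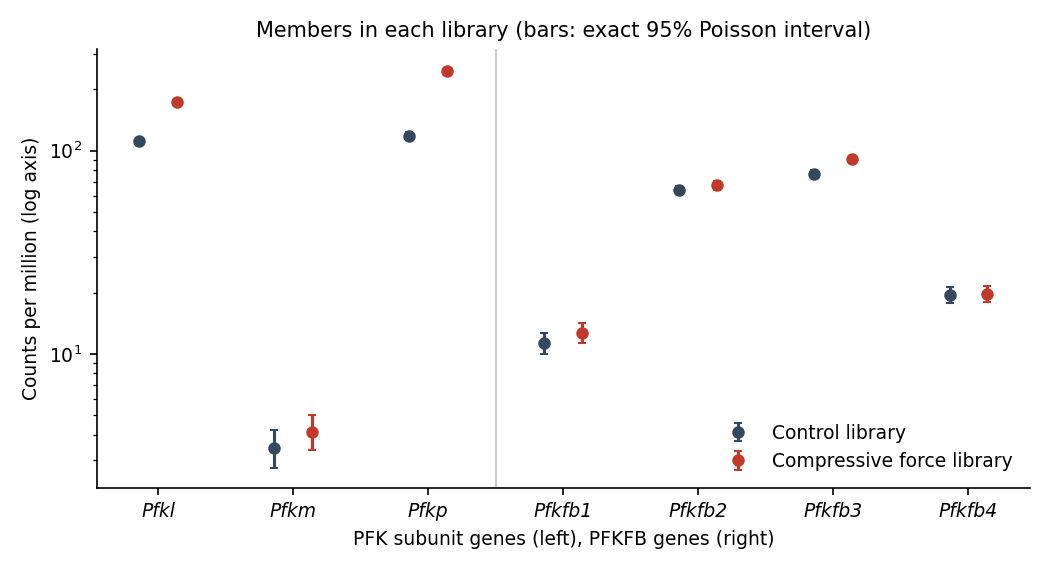
CPM (log axis) of the 7 genes in the control library (dark) and the compressed library (red), with exact 95% Poisson intervals for counting error. Pfkp stands at 118.3 CPM in the control and 244.9 CPM under force, while the points of Pfkfb4 lie at 19.6 and 19.7 CPM. Values compare libraries within a gene, since they are not per transcript length.

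The compressed library held a larger share of Pfkp among its subunit reads. Pfkp took 50.8% of the family's counts in the control library (95% Wilson interval 49.6 to 52.1) and 57.9% under force (57.0 to 58.9). The share of Pfkl was 47.7% (46.4 to 48.97) in the control and 41.1% (40.1 to 42.04) under force. Pfkm made up 1.47% and 0.974%. These shares are of reads, which also depend on transcript length, so they show the shift between libraries and not the abundance of one subunit against another. The odds of a family read being Pfkp were 1.33 times higher under force (1.25 to 1.42), those of Pfkl 1.31 times lower (odds ratio 0.765, 0.717 to 0.817), and those of Pfkm had an odds ratio of 0.657 (0.487 to 0.889). Both counts of an odds come from the same library, so they do not depend on how the libraries were scaled.

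The PFKFB genes lay close to a ratio of 1. Their summed counts were 4625 under force and 4302 in the control, a ratio of 1.11 (1.06 to 1.16). Without Pfkfb3 the sum had a ratio of 1.05 (0.995 to 1.12), so the interval of the family sum lay above 1 through Pfkfb3.

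Pfkfb3 encodes the inducible isoform, whose kinase activity far exceeds its phosphatase activity, and lies on chromosome 2 at 11471430 to 11554071. It had 2201 counts (90.6 CPM) under force and 1928 counts (76.9 CPM) in the control, a ratio of 1.18 (1.11 to 1.25). Of the 4 PFKFB intervals, that of Pfkfb3 excluded 1, and the span of the gene overlaps the lncRNA genes Gm52500 and Gm10851, which were not analysed here. Intervals that exclude 1 were common at this depth: 26.3% of the 14001 genes had an interval above 1 and 28.6% an interval below 1. Of the 10085 mRNAs, 18.1% had a higher log2 ratio, and the central 90% of them had ratios between 0.736 and 1.47.

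Pfkfb4, first described in testis and, like Pfkfb3, known as hypoxia-inducible, lies on chromosome 9 at 108988272 to 109032236. It had 479 counts under force and 490 in the control (19.7 and 19.6 CPM). The ratio was 1.01 with an interval of 0.888 to 1.15, so counting error left room for a change of up to about 1.15-fold between the libraries.

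Pfkfb2, the heart isoform, which is activated by insulin-dependent phosphorylation, lies on chromosome 1 at 130689043 to 130729253. It had 1636 counts (67.4 CPM) under force and 1601 (63.9 CPM) in the control, a ratio of 1.05 (0.984 to 1.13). Its span shares 4747 bases with Yod1, a deubiquitinase gene with 1037 counts against 1208 and a ratio of 0.886 (0.815 to 0.963). Pfkfb1, the liver and muscle isoform, lies on chromosome X at 150587445 to 150643878. It had 309 counts (12.7 CPM) against 283 (11.3 CPM), a ratio of 1.13 (0.956 to 1.33), and shares 762 bases with Apex2, a DNA repair gene whose ratio was 0.918.

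**Figure D2:**
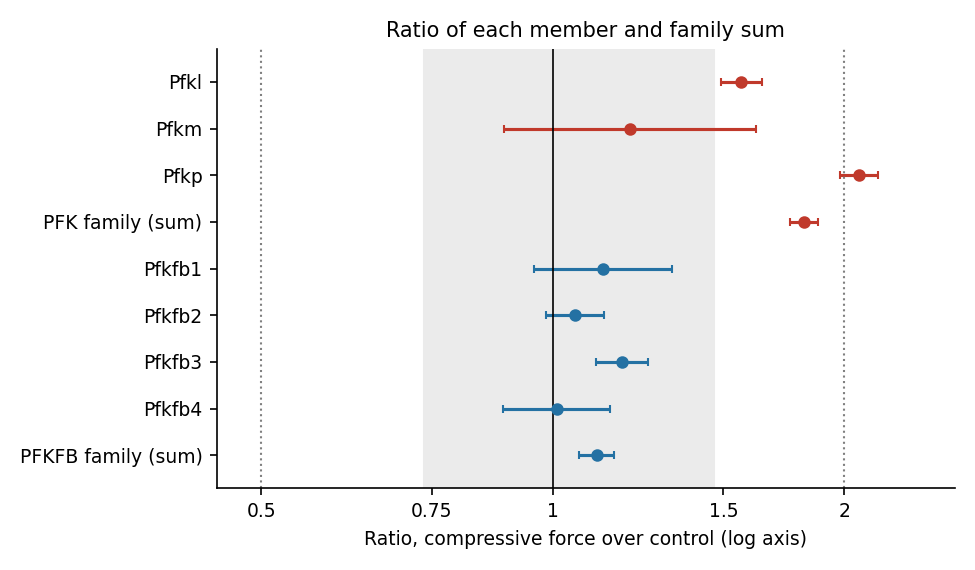
Ratio of the compressed over the control library (log axis) for the 3 phosphofructokinase genes and their sum (red) and the 4 PFKFB genes and their sum (blue), with 95% counting intervals. Dotted lines mark ratios of 0.5 and 2, and the grey band holds the central 90% of 10085 mRNAs; Pfkp and Pfkl lie to the right of the band and the 4 PFKFB genes within it.

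Within the PFKFB family, Pfkfb3 took 44.8% of family counts in the control (95% Wilson interval 43.3 to 46.3) and 47.6% under force (46.2 to 49.03), and its odds ratio was 1.12 (1.03 to 1.22). The odds ratios of Pfkfb1 (1.02, 0.857 to 1.21), Pfkfb2 (0.923, 0.846 to 1.01) and Pfkfb4 (0.899, 0.785 to 1.03) had intervals that included 1.

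In order of ratio the members ran Pfkp, Pfkl, Pfkm, Pfkfb3, Pfkfb1, Pfkfb2 and Pfkfb4. The ratio of Pfkp exceeded that of Pfkl, its neighbour in this order, 1.32 times (1.24 to 1.41). Pfkp lay above each of the other 6 members beyond counting error. Pfkl lay above all 4 PFKFB genes, by 1.33 times (1.23 to 1.44) over Pfkfb3 and 1.55 times (1.35 to 1.78) over Pfkfb4. From Pfkl down, neighbours in the order had intervals that included 1. Pfkfb3 stood above Pfkfb2 by 1.12 times (1.02 to 1.23) and above Pfkfb4 by 1.17 times (1.01 to 1.35). Of all 21 pairs 12 had an interval that excluded 1, with no adjustment for the number of pairs. As families, the ratio of the phosphofructokinase sum exceeded that of the PFKFB sum 1.64 times (1.55 to 1.73).

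**Figure D3:**
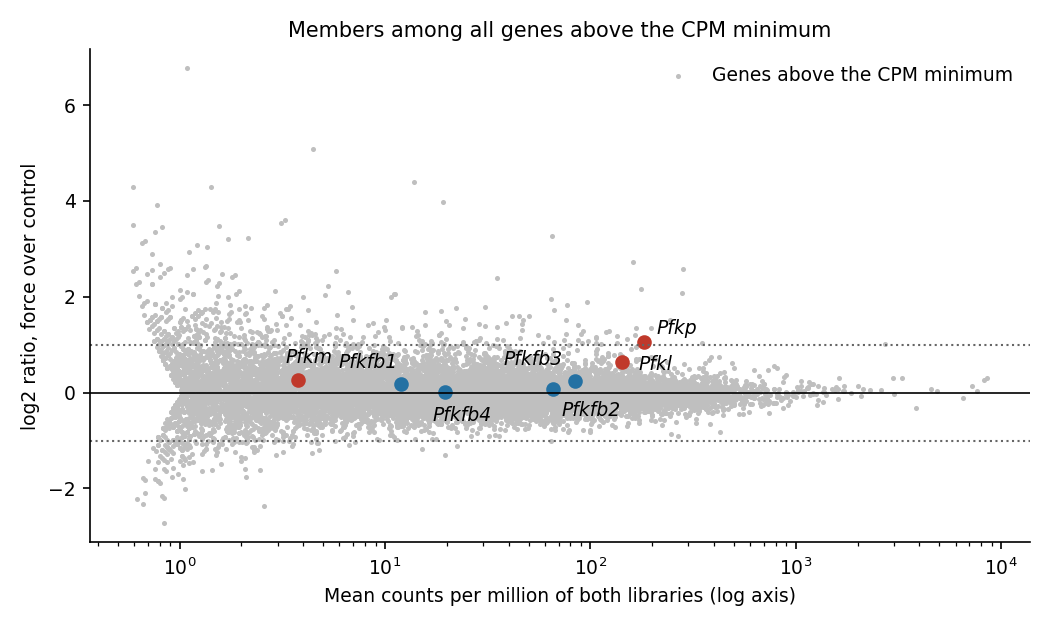
The log2 ratio of the compressed over the control library against mean CPM (log axis) for the 14001 genes above the CPM minimum (grey), with phosphofructokinase genes in red and PFKFB genes in blue. Dotted lines mark 2-fold; Pfkp lies at the upper line, at the edge of the genes of like abundance, and the 4 PFKFB genes lie near 0.

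Most tested genes of the other glycolytic steps had ratios somewhat above 1, and 2 were called. Of 21 listed enzyme genes 15 passed the CPM minimum. Of these 2 were called higher and 0 lower, against 3.11% and 1.01% of all genes tested. Intervals lay above 1 in 13, against 26.3% of all genes tested, and below 1 in 0. That share is not matched for abundance, and intervals narrow as counts rise, so the contrast partly follows depth. The median log2 ratio of the 15 was 0.48, against -0.01 over all 14001 genes. The 2 called, named after their values were seen, were the neuronal enolase Eno2, with 6992 counts against 1615 (ratio 4.47, 4.23 to 4.72), and the brain-type aldolase Aldoc, with 54 against 27 (2.06, 1.28 to 3.41). With the loess fit, or at a minimum of 5 CPM, 1 of the 2 calls was left. The list was compiled with earlier results of these data known, so its direction is no independent evidence.

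Among the genes with the most counts at each of 10 other steps, Pfkp had the higher ratio in all 10 comparisons and Pfkl in 9. Left out are the other genes of these steps above the CPM minimum. Of these Eno2 had a ratio of 4.47, Aldoc 2.06, Hk2 1.76 (1.67 to 1.86), Eno3 0.955 and Ldhb 0.909. By ratio, Eno2 lay above Pfkp, and Aldoc and Hk2 lay between Pfkp and Pfkl. Entry into the pathway was represented by Hk1, a hexokinase, with a ratio of 1.47 (1.41 to 1.53), and by the isomerase Gpi1, with 1.40 (1.35 to 1.45). Directly below phosphofructokinase, Aldoa, which splits its product, had a ratio of 1.39 (1.36 to 1.43), and Tpi1, the triose isomerase, 1.42 (1.39 to 1.45). The ratio of Pfkp exceeded that of Aldoa 1.49 times (1.41 to 1.56) and that of Hk1 1.41 times (1.33 to 1.499).

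In the lower part of the pathway, Gapdh stood at 1.84 (1.68 to 2.01), the step at which Pfkl had the lower ratio. Gapdh has many processed pseudogenes and how reads that align to several places were counted is not stated, so that value is uncertain. In the control Gapdh stood at 30.2 CPM and Pgam1 at 35.1 CPM, against 671.6 CPM for Tpi1. The same limit holds for any other step gene with pseudogenes, and so for the comparisons over the 10 steps. The kinase Pgk1 had a ratio of 1.17 (1.12 to 1.22), the mutase Pgam1 1.34 (1.22 to 1.46), the enolase Eno1 1.29 (1.26 to 1.31), the pyruvate kinase gene Pkm 1.23 (1.21 to 1.24), and Ldha, which makes lactate, 1.25 (1.23 to 1.28). Pfkfb3 had a lower ratio than these step genes at 7 of the 10 steps, while its comparisons with Pgk1, Pkm and Ldha included 1.

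**Figure D4:**
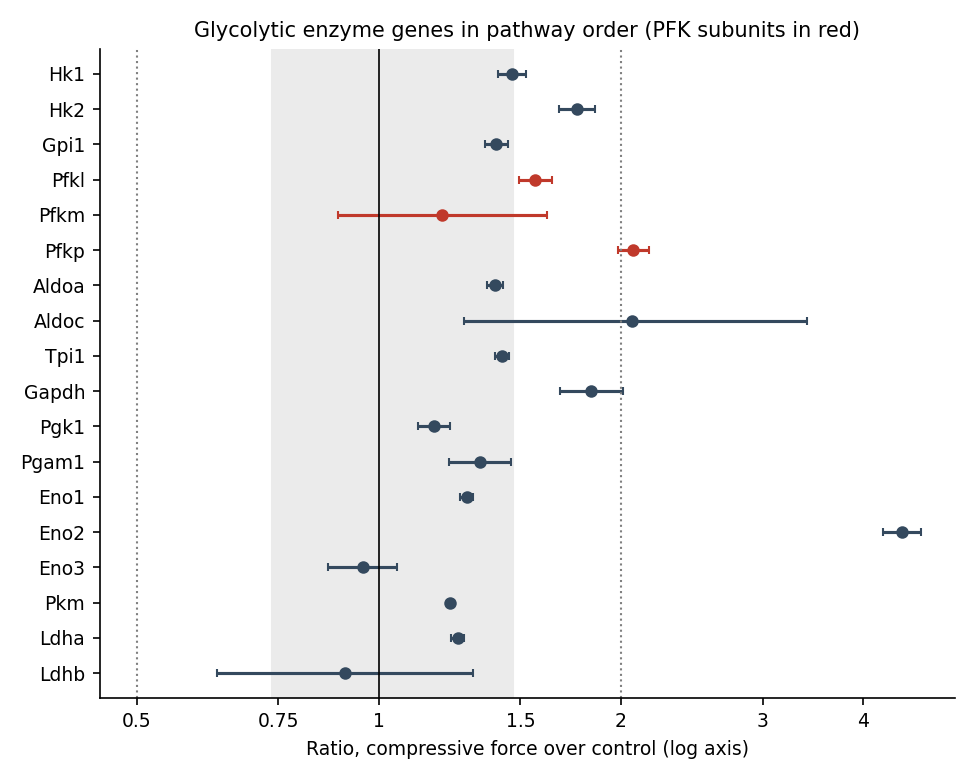
Ratio of the compressed over the control library (log axis) with 95% counting intervals for glycolytic enzyme genes above the CPM minimum, in pathway order, with phosphofructokinase genes in red. Dotted lines mark ratios of 0.5 and 2 and the grey band holds the central 90% of mRNAs; Eno2 at 4.47 and Pfkp at 2.07 are the well counted genes past 2-fold.

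Of the listed bisphosphatases outside the PFKFB family (Fbp1, Fbp2 and Tigar), Tigar had reads. Fbp1 and Fbp2, the fructose bisphosphatases of gluconeogenesis, were at 0 counts under force and in the control, where a count of 0 allows up to 0.124 CPM under force and 0.12 CPM in the control. Tigar, a p53-induced phosphatase that removes fructose 2,6-bisphosphate, is listed under its older symbol 9630033F20Rik. It had 278 counts (11.4 CPM) under force and 490 (19.6 CPM) in the control, a ratio of 0.585 (0.503 to 0.680), below 1 beyond counting error and short of the limit of 0.5. The ratio of Pfkfb3 was 2.01 times that of Tigar (1.71 to 2.37), and that of Pfkp 3.54 times (3.02 to 4.14).

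AMPK, the energy-sensing kinase that phosphorylates Pfkfb2 and Pfkfb3, had all 7 subunit genes above the CPM minimum, with a median log2 ratio of -0.08. Of these 1 was called higher and 0 lower, against 3.11% and 1.01% of all genes tested. Prkab2, a regulatory beta subunit, had 1647 counts (67.8 CPM) against 564 (22.5 CPM), a ratio of 3.01 (2.74 to 3.32). The other beta subunit, Prkab1, had 1177 counts against 1376, a ratio of 0.883 (0.816 to 0.955), so the ratio of Prkab2 to Prkab1 was 3.41 times higher under force (3.01 to 3.87). The catalytic subunits Prkaa1 and Prkaa2 had ratios of 0.904 (0.866 to 0.944) and 1.04 (0.951 to 1.13).

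Other kinases and ubiquitin ligases that act on these proteins had 0 of 11 genes called and a median log2 ratio of 0.05. Over all genes tested 3.11% were called higher and 1.01% lower. The highest were Trim63, a muscle ubiquitin ligase, at 1.62 (0.931 to 2.85) with 36 counts against 23, and the kinase Rps6ka1, which phosphorylates Pfkfb3, at 1.43 (1.34 to 1.52). The lowest were Trim21, a ligase of Pfkp protein, at 0.686 (0.549 to 0.856), and Akt1 at 0.881 (0.851 to 0.912). The pentose phosphate pathway, which draws on the same hexose phosphates, had 0 of 8 genes called, against the same shares, and a median of -0.05. Its highest ratios were those of H6pd (1.22, 1.15 to 1.30) and G6pdx (1.16, 1.11 to 1.22), both dehydrogenases of its first step, and its lowest those of Pgls (0.921, 0.827 to 1.02) and Rpe (0.923, 0.865 to 0.986).

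The HIF subunits and their oxygen sensors had 1 of 9 genes called higher and 0 lower, against 3.11% and 1.01% of all genes tested. Of their intervals 4 lay above 1, 2 below 1 and 3 included 1. Over all genes tested, with no match for abundance, 26.3% lay above and 28.6% below. The median log2 ratio was 0.43, the value of Epas1 with its few counts, and 0.26 at a minimum of 5 CPM. Hif1a, an oxygen-regulated subunit, had 6377 counts against 6654, a ratio of 0.989 (0.955 to 1.02). Its partner Arnt had 879 against 622, a ratio of 1.46 (1.31 to 1.62), and Epas1 59 against 45 (1.35, 0.902 to 2.04). The prolyl hydroxylases Egln1 and Egln3, which mark HIF subunits for breakdown and are themselves HIF targets, had ratios of 2.21 (2.09 to 2.35) and 1.83 (1.55 to 2.17). Egln2, also a HIF prolyl hydroxylase, had a ratio of 0.895 (0.826 to 0.969). The lowest ratios were those of Hif1an, an asparagine hydroxylase of HIF, at 0.820 (0.771 to 0.872), and Arnt2 at 0.827 (0.653 to 1.04). HIF1A is controlled mainly at the protein level, which these counts do not measure.

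**Figure D5:**
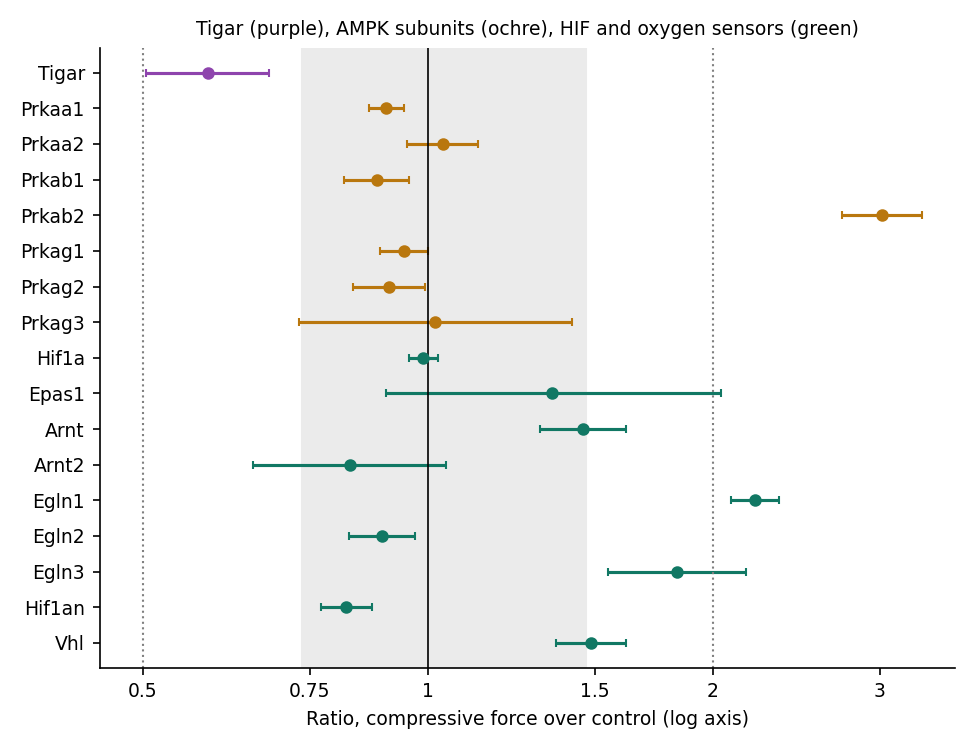
Ratio of the compressed over the control library (log axis) with 95% counting intervals for Tigar (purple), the AMPK subunits (ochre) and the HIF subunits and oxygen sensors (green). Dotted lines mark ratios of 0.5 and 2 and the grey band holds the central 90% of mRNAs; Prkab2 at 3.01 and Egln1 at 2.21 lie past 2-fold, and Tigar lies at 0.585.

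The labelled cell type was checked against marker genes. The osteoblast and cementoblast markers Col1a1, Col1a2, Runx2, Spp1, Alpl, Postn and Sp7 passed the CPM minimum with ratios between 0.787 and 1.10, while bone sialoprotein (Ibsp) was at 0 counts throughout and Bglap at 12 against 11. Skeletal muscle is the main tissue of Pfkm, and of 8 muscle markers 1, Actn3, passed the minimum, with 96 counts against 61. Ckm, Myod1 and Myh1 were at 0 in both libraries, and the muscle list summed to 4.69 CPM under force and 3.07 CPM in the control. Liver is rich in Pfkl and Pfkfb1, and the 6 hepatocyte markers summed to 0.247 and 0.0798 CPM, with 0 of 6 above the minimum and Alb at 0. Macrophage and osteoclast markers summed to 19.8 and 20.9 CPM, with 4 of 7 above the minimum and Ptprc at 0. Those above were Cd14 (242 counts under force against 276), Cd68 (150 against 143), Ctsk (50 against 62) and Csf1r (39 against 44). Endothelial markers summed to 4.32 and 4.15 CPM, with 2 of 5 above, Vwf (84 against 70) and Pecam1 (21 against 32), and Kdr at 0. Epithelial markers summed to 1.94 and 1.84 CPM, with 1 of 6 above, Krt8 (27 against 23), and Epcam at 0. In a bulk library, more cells that express a gene and more RNA of it per cell cannot be told apart.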

How the data were processed

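RNA was sequenced from 1 library of compressed and 1 of control OCCM-30 cells. The authors deposited whole-number read counts per gene with no normalization; the submitters' processing notes name HISAT2 and the GRCm38 build. No source used here states the counting tool, annotation version, strand setting or handling of multiply aligned reads, so reads of paralogous subunits and of overlapping genes may be shared or lost.

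CPM used TMM effective library sizes from edgeR 4.0.16 (R 4.3.3). Ratios carry exact 95% conditional binomial intervals, and odds ratios exact conditional intervals (SciPy 1.17.1). These cover counting error only, since reads are not independent molecules and nothing measures the spread between cultures. With 1 library per group there is no p-value. List medians used log2 ratios with a prior count of 0.5. Floors are 3 counts. The intervals were tested on simulated counts that held counting error only, so that test says nothing on the spread between cultures.

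Genes named are the 7 members, Fbp1, Fbp2, Tigar, Hif1a, Epas1, Arnt, the gene with the most counts at each glycolytic step, and the 2 highest and 2 lowest ratios of the other lists. The other genes of the glycolytic steps above the CPM minimum, and Egln2, were named after the values were seen. Members and lists were chosen with earlier results of these data known. With 2 libraries, no likeness of pattern between genes was computed. Gene positions, counted from 1, and promoters come from RefSeq (GRCm38.p6), which matched all 7 members. Alternatives were total-count scaling, DESeq2 1.42.0 size factors, upper-quartile factors, a loess fit, other CPM minimums, fold limits and prior counts, and no interval requirement.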

Additional observations from a re-analysis of the deposited data

How the results depend on the processing

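Under every scaling tried (total-count, DESeq2 size factors, upper-quartile, loess) and with a prior count of 5, the 7 member ratios and both family sums stayed inside their own counting intervals. Pfkp ranged from 2.05 to 2.12 and was called under all of these scalings, Pfkl from 1.55 to 1.60, Pfkfb3 from 1.17 to 1.21 and Pfkfb4 from 1.00 to 1.02. Members called higher went from 1 to 2 at a fold limit of 1.5, by the construction of the limit, which adds Pfkl. Over all genes, the calls depended on the limits: with no CPM minimum 781 were higher and 380 lower, at a CPM minimum of 5 156 and 13, and at a fold limit of 1.5 1027 and 523. A prior count of 0.5 in the fold limit, added after the data were seen, gave 428 and 130 with Pfkp still called. The median log2 ratio of the HIF list was 0.26 at a CPM minimum of 5, against 0.43, and that of the other kinases and ligases 0.0064 there and 0.081 with the loess fit, against 0.049. With the loess fit the AMPK median was -0.051, against -0.084, and the pentose phosphate median -0.034, against -0.053. The other list medians kept their sign and stayed within 1.5 times the reported value. No paired analysis was possible because each group has 1 library, and no library could be left out. Depth limits Pfkm most, where a ratio from 0.890 to 1.62 is within counting error.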
